A study of Mus musculus with 18 samples.

Results

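The genes described here encode 33 proteins of the cardiac sarcomere and of its Z-disc, and all 33 were found by symbol among the 51435 genes of the deposited tables. They were chosen by name, as proteins of this structure, with earlier results of these data known. The RNA came from left ventricles of 18 male mice of a C57BL/6J-based line, 9 WT and 9 WWP2 Mut/Mut littermates. Every mouse, WT included, had received angiotensin II (AngII), a vasoconstrictor peptide that enlarges and scars the heart, from a subcutaneous pump at 500 ng/kg/min for 28 days, starting at 8 weeks of age. No library of an untreated heart was analysed here, so the data compare genotypes within the AngII-treated heart. The WWP2 Mut/Mut mice are homozygous for a deletion of 4 bp in Wwp2 (exon 2), a gene for an E3 ubiquitin ligase. The mutation is carried in the germline. Per the study, it disrupts the full-length and N-terminal isoforms and is unlikely to affect the C-terminal isoform.

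The sarcomere is the contractile unit of striated muscle. Thick filaments of myosin, with their light chains and binding proteins, pull on thin filaments of actin, whose access to myosin is switched by calcium through the troponin and tropomyosin proteins. Titin spans from the M-band, which holds the thick filaments together, to the Z-disc, where α-actinin cross-links the thin filaments of neighbouring sarcomeres and where proteins that respond to stretch are anchored. Several of these proteins exist as atrial and ventricular forms, or as fast, slow and embryonic forms, each encoded by its own gene.

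The libraries held 24566994 to 37451087 counts, and the genotypes did not differ detectably in depth (exact permutation test, two-sided, p = 0.456). Wwp2 was lower in every WWP2 Mut/Mut library than in any WT library (5.09 ± 0.600 TPM in WT and 1.72 ± 0.528 TPM in WWP2 Mut/Mut, SD, n = 9 each; log2 fold change -1.40, adjusted p = 0.00113, edgeR). Cardiomyocyte markers outside the 33 genes were abundant, with all 9 of 9 at 1 TPM or more in each library, and 8 of 12 fast skeletal muscle markers, among them Myh1, Myh2 and Myh4, stayed under 1 TPM throughout. RNA concentration differed between the groups (110.1 ± 51.5 ng/µl in WT and 175.0 ± 73.6 ng/µl in WWP2 Mut/Mut; exact permutation test, p = 0.0422), and WT mouse 43-3 was recorded at 1.68 ng/µl. The liver transcript Alb ranged from 0.07 to 112.5 TPM (27.4 ± 35.0 in WT and 6.89 ± 6.55 in WWP2 Mut/Mut; exact permutation test, p = 0.0501). In whole tissue, fewer cells of a type and less RNA per cell cannot be told apart.

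Transcripts of the 33 genes made up 7.15% to 8.89% of the TPM of a library. TPM, the relative abundance of transcripts, is scaled to transcript length, so levels of different genes can be set side by side. Their summed level was 64404.5 ± 5310.8 TPM in WT and 60864.4 ± 6779.8 TPM in WWP2 Mut/Mut (SD, n = 9 each), a difference smaller than the SD of each group. By mean level over the 18 mice, 8 genes stood at 1000 TPM or more, 10 at 100 to 1000, 12 at 10 to 100 and 3 below 10 TPM. The coefficient of variation between mice was under 15% for 5 genes and 15% to 50% for 24, of which 13 were above 30%, with Xirp1 (42.3%) and Flnc (42.0%) the highest of the 24. The 4 genes above 50% were Myl7, Myl4, Mybphl and Tnni1.

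**Figure D1:**
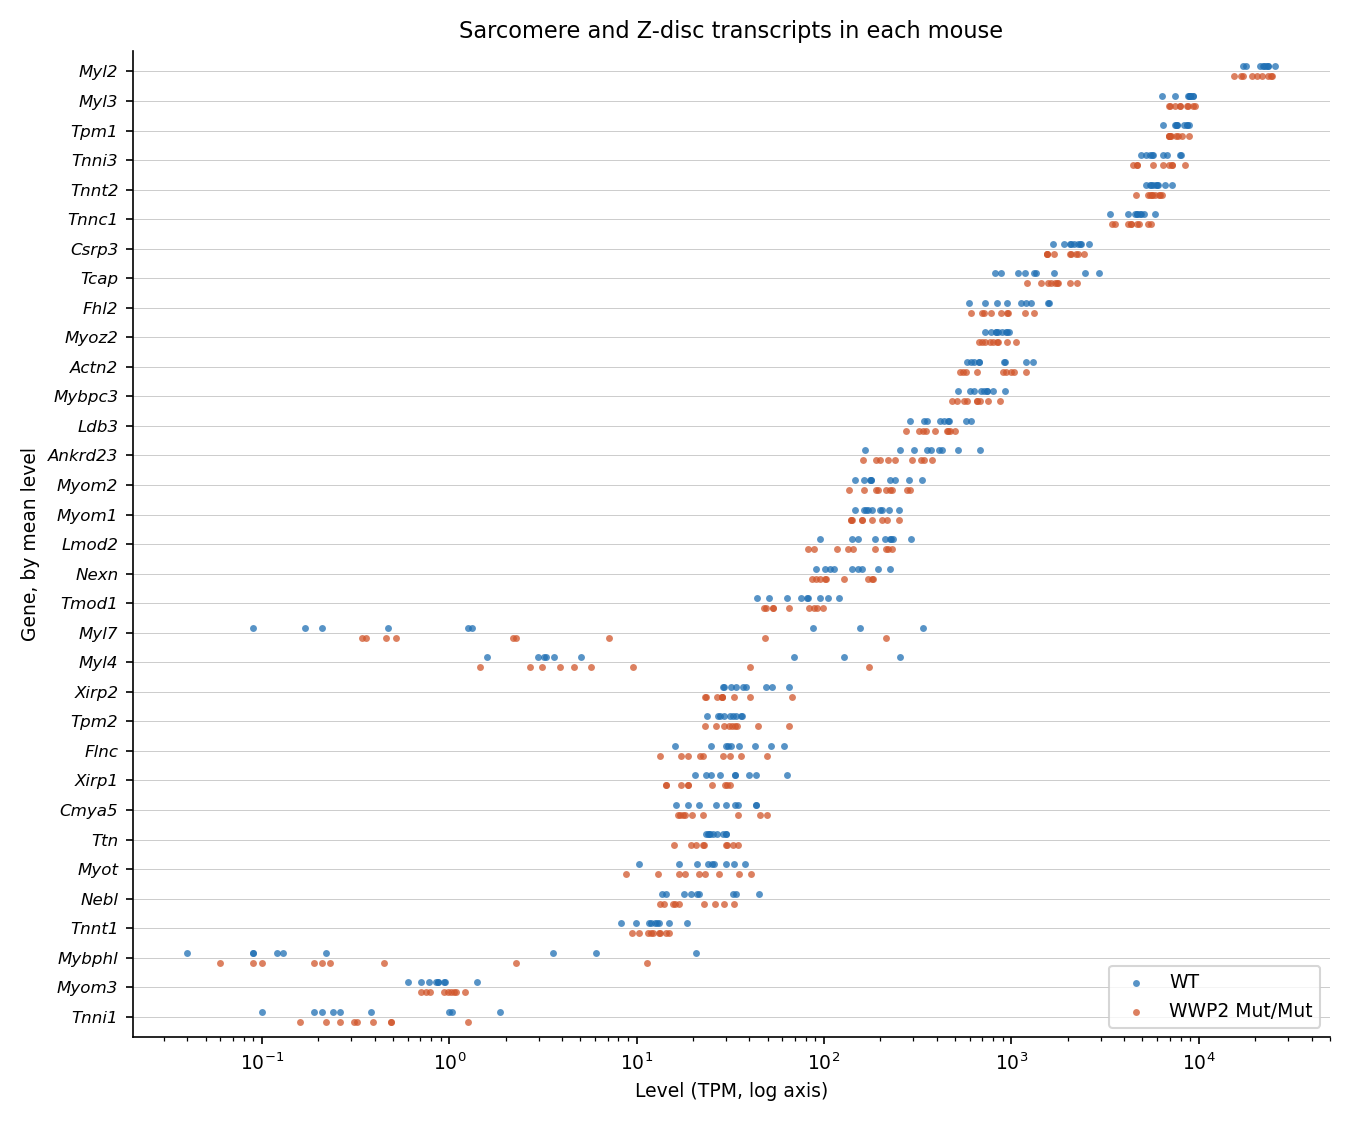
Level of each of the 33 transcripts in each mouse, in TPM on a log axis, with 9 WT mice (blue) and 9 WWP2 Mut/Mut mice (orange) and genes ordered by mean level. The mean levels run from 21070 TPM for Myl2 to 0.51 TPM for Tnni1, the points of both genotypes overlap for every gene, and Myl7, Myl4 and Mybphl show 5 mice apart from the rest.

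The most abundant transcript was Myl2, which encodes the ventricular regulatory light chain of myosin (chr5:122100951-122113472 of GRCm38, plus strand). Its level was 17200 to 25640 TPM in WT mice (median 22370) and 15460 to 24490 TPM in WWP2 Mut/Mut mice (median 20350). Myl3, the gene of the ventricular essential light chain, was measured at 6373 to 9345 TPM in WT (median 8981) and 6970 to 9553 TPM in the mutant (median 7960). Both light chains overlapped almost completely between genotypes.

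Among thin filament genes, Tpm1, for the main cardiac tropomyosin, ranged from 6435 to 8895 TPM in WT (median 7663) and from 6902 to 8839 TPM in WWP2 Mut/Mut (median 7083). Tnni3, for cardiac troponin I, ranged from 4920 to 8061 TPM in WT (median 5697) and from 4441 to 8432 TPM in the mutant (median 6466). Tnnt2, for cardiac troponin T, ranged from 5251 to 7157 TPM in WT (median 5900) and from 4645 to 6342 TPM in the mutant (median 5658). None of the 3 separated the genotypes. An exon of Tnni3 overlaps an exon of Dnaaf3 on the same strand, so some reads cannot be assigned to Tnni3 with certainty.

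The titin gene Ttn, whose longest annotated transcript has 106824 bases, was at 23.5 to 30.04 TPM in WT and 15.8 to 35.0 TPM in WWP2 Mut/Mut. All 9 WT values therefore lay inside the wider mutant range. Because TPM divides by length, its low level stands beside large counts, 43397 to 88415 per library. Of the myomesins, which cross-link the M-band, Myom2 averaged 213.7 TPM and Myom1 183.0 TPM, and Myom3 averaged 0.918 TPM. At the Z-disc, the muscle LIM protein gene Csrp3 (2042 TPM on average), the titin cap gene Tcap (1618 TPM), Fhl2 (996.5 TPM), the calsarcin gene Myoz2 (840.4 TPM) and the α-actinin gene Actn2 (827.0 TPM) led, and the myotilin gene Myot (23.8 TPM) and the nebulette gene Nebl (22.6 TPM) were lowest.

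Myl7, Myl4 and Mybphl were the genes that varied most between mice, by 3760-fold, 176-fold and 517-fold in TPM. In the mature heart all 3 are expressed mainly in the atria, where Myl7 and Myl4 encode the regulatory and essential light chains of atrial myosin and Mybphl encodes a relative of myosin-binding protein C. The bases that precede the starts of these genes are shown because the 3 transcripts were high in the same libraries, beside those of Myl3, the ventricular partner of Myl4. Each run holds 250 bases that end just before the RefSeq start of the gene (GRCm38.p6), read 5′ to 3′ on the gene's strand, and the capitals mark matches to the motifs listed after them.
Myl7, chr11:5898783-5899032, minus strand: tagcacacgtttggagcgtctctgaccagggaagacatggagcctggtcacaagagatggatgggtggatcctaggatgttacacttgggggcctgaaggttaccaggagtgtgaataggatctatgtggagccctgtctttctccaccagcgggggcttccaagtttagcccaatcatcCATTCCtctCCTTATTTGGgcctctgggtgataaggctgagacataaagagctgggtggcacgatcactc
Myl4, chr11:104550413-104550662, plus strand: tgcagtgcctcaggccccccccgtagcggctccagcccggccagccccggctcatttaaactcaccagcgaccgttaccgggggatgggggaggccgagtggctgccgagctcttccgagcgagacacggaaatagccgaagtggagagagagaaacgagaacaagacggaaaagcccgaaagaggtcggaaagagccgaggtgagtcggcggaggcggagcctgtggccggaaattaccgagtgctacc
Mybphl, chr3:108364661-108364910, plus strand: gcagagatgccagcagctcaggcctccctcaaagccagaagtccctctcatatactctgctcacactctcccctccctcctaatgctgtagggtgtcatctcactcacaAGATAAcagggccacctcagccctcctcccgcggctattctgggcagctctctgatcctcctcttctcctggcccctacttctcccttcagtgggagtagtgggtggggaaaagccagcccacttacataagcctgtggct
Myl3, chr9:110763428-110763677, plus strand: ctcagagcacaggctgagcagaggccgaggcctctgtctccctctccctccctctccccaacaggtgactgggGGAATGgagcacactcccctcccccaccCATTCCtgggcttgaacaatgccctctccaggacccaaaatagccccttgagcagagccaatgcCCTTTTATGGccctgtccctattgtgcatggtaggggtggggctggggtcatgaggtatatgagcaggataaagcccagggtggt

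Both strands were searched for 6 motifs. The first was the common start-site motif TATAAA. TEAD factors, which are active in muscle, are known to bind the core CATTCC. The motif AGATAA is known to be bound by zinc-finger factors of the GATA family, GATA4 of the heart among them. T-box factors, which pattern the chambers of the embryonic heart, are known to bind AGGTGT. The CArG box, bound by serum response factor, and the MEF2 site were the others. The Myl7 window holds CATTCC at position -70 and a CArG box at -61, counted as the first base of the match from the start of the gene, and these matches do not overlap. The Myl3 window holds a CArG box at -85 and CATTCC at -149 and, on the other strand, -177. Mybphl holds AGATAA at -141, and the Myl4 window holds none of the 6. A CArG box reads the same on both strands, so each is 1 site. RefSeq windows of 300 bases, with 50 bases past the start, were found for 28 of the 33 genes (39 windows, some from other starts of the same gene), and none was used for Myom2, Myot, Nexn, Tcap and Xirp1. A CArG box was in 20.5% of these windows, from 6 genes (Fhl2, Ldb3, Myl3, Myl7, Myom1 and Nebl), against 1.63% of all 32851 mouse windows. The MEF2 site was in 15.4% against 3.19%, CATTCC in 30.8% against 14.7%, AGATAA in 23.1% against 11.2%, AGGTGT in 15.4% against 13.7% and TATAAA in 7.69% against 13.6%. A match describes the letters of a window only. Which start these libraries used was not measured, and the RefSeq start of Myl3 lies inside the span that the GENCODE annotation gives the gene.

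Myl7 was at 48.7 to 338.0 TPM in 5 libraries and at 0.09 to 7.14 TPM in the other 13. The 5 were WT mice 45-1 (338.0 TPM), 43-3 (156.5) and 84-2 (87.6) and WWP2 Mut/Mut mice 8-2 (213.8) and 22-3 (48.7). Both genotypes were thus among them, and the mean Myl7 level differed by less than the spread within each group (65.1 ± 116.4 TPM in WT, 30.6 ± 70.4 TPM in WWP2 Mut/Mut; two-sided exact permutation test, p = 0.517). Lane 3 held 3 of the 5, which is 3 of its 4 libraries. Even in these libraries Myl7 amounted to only 0.315% to 1.97% of Myl2.

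Myl4 was at 40.2 to 254.8 TPM in the same 5 libraries and at 1.45 to 9.53 TPM in the other 13. Mybphl was at 2.26 to 20.7 TPM in the 5 and at 0.04 to 0.45 TPM in the rest, where it rested on 2 to 26 counts. In the 5 libraries Myl4 was a nearly fixed 0.754 to 0.826 times Myl7, whereas Mybphl varied more, from 3.9% to 6.12% of Myl7. In each of the other 13 libraries Myl4 exceeded Myl7, so a low level of Myl4 was present where Myl7 was nearly absent. Tnni1, which encodes the slow skeletal and embryonic troponin I, was at 1.0 to 1.87 TPM in 4 of the 5 libraries, at 0.16 TPM in WWP2 Mut/Mut mouse 22-3, and at 0.1 to 0.49 TPM in the other 13.

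**Figure D2:**
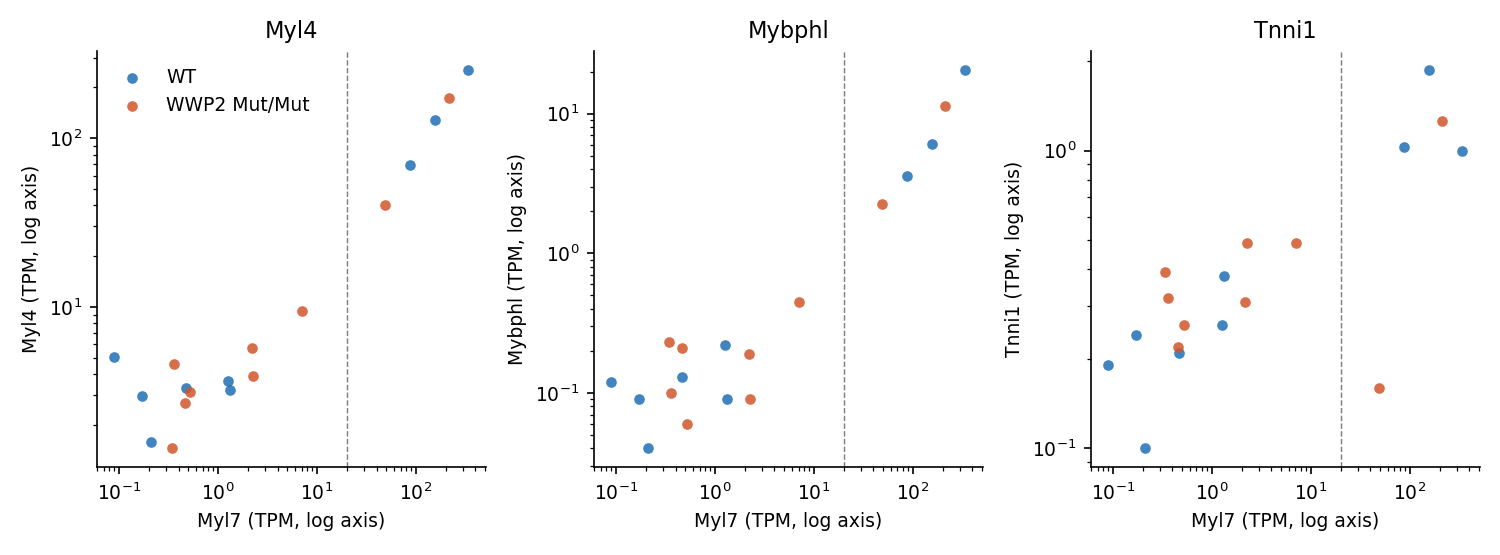
Myl4, Mybphl and Tnni1 against Myl7 in each library, all in TPM on log axes, with WT in blue, WWP2 Mut/Mut in orange and a dashed line at 20 Myl7 TPM. The 5 libraries right of the line hold 40.2 to 254.8 TPM of Myl4 and 2.26 to 20.7 TPM of Mybphl, above all 13 others, whereas the Tnni1 values overlap because 1 of the 5 holds 0.16 TPM.

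Across all 18 libraries, the log2 change per unit of log2(Myl7 TPM + 1) was tested in the fit over all genes, with genotype, RNA concentration and lane as other terms. Of the 32 genes other than Myl7, 2 (6.25%) were called at an adjusted p below 0.05, against 15 of 24803 genes overall (0.0605%). Mybphl had a slope of 0.89 (SE 0.0475, adjusted p = 1.18e-08) and Myl4 one of 0.75 (SE 0.0504, adjusted p = 2.63e-07), both by the quasi-likelihood test of edgeR. Tnni1 had a slope of 0.20 (SE 0.0660, adjusted p = 0.517). At an unadjusted p below 0.05 there were 10 of 32 genes (31.2%), against 8.77% of all genes tested. Most genes tested have far lower counts than these, and among genes with a mean count of 50 or more per library 9 of 31 were past this limit, against 11.6% overall. Besides Mybphl, Myl4 and Tnni1 they were Tnnt1, Tnnc1, Myl3, Csrp3, Myl2, Myoz2 and Tnni3, with slopes between -0.12 and -0.06, none of which passed the adjusted threshold.

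Non-member markers of the atrium were read in the same libraries. Sln, for sarcolipin of the atrial sarcoplasmic reticulum, was at 4.23 to 35.1 TPM in the 5 libraries and at 0 to 0.46 TPM in the other 13, and Dkk3 was at 1.79 to 12.1 TPM against 0.59 to 1.29 TPM. Relative to Myl7 in the 5 libraries, Sln was at 5.18% to 10.4% and Dkk3 at 2.34% to 5.2%. Stard10 (16.2 to 38.1 TPM against 10.2 to 19.3 TPM), Kcnj3 (medians of 7.99 and 5.43 TPM) and Kcnk3 (48.1 to 71.0 against 34.7 to 72.2 TPM) overlapped between the 5 and the 13 libraries. Bmp10, which marks the atrium of the right side, was at 0.03 TPM or less in all. Nppa, the natriuretic peptide gene that the stressed ventricle also expresses, overlapped too (353.6 to 815.0 TPM against 316.6 to 1047 TPM). The summed level of the 7 non-member atrial markers was 473 to 1120 TPM in WT and 390 to 879 TPM in WWP2 Mut/Mut, of which Nppa made up 69.9% to 93.9%.

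The question of the design is which transcripts the Wwp2 mutation changes in the AngII-treated ventricle. None of the 33 sarcomere and Z-disc genes was called at an adjusted p below 0.05, by edgeR or by DESeq2, against 1 of 24804 genes tested (0.00403%), Wwp2 itself. At an unadjusted p below 0.05 there were 4 of 33 genes (12.1%), against 3.66% of all genes tested and 1.63% of those with a mean count of 50 or more. This count was not stable, at 1 to 6 under other settings and 1 to 8 with 1 mouse left out. The count over all genes ran from 307 to 1522 under the settings, which tested different numbers of genes, and from 730 to 1138 with 1 mouse left out. Of the 4, 1 was higher in the mutant (3.03%, against 1.09% of all genes) and 3 were lower (9.09%, against 2.57%). The median log2 fold change of the 33 genes was -0.03, beside -0.01 for all genes tested. No gene of the 33 had TPM ranges that did not overlap between genotypes, a count not set here beside that of all genes. In a simulation at the depth of these libraries the same fit recovered 83% of 200 genes changed 2-fold and 24% of 200 changed 1.5-fold. The changed genes had a mean count of 50 or more. Coverage, atrial transcripts, lane and RNA concentration were not simulated as separate effects. The fold changes of the 5 genes below are smaller than 1.5-fold.

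**Figure D3:**
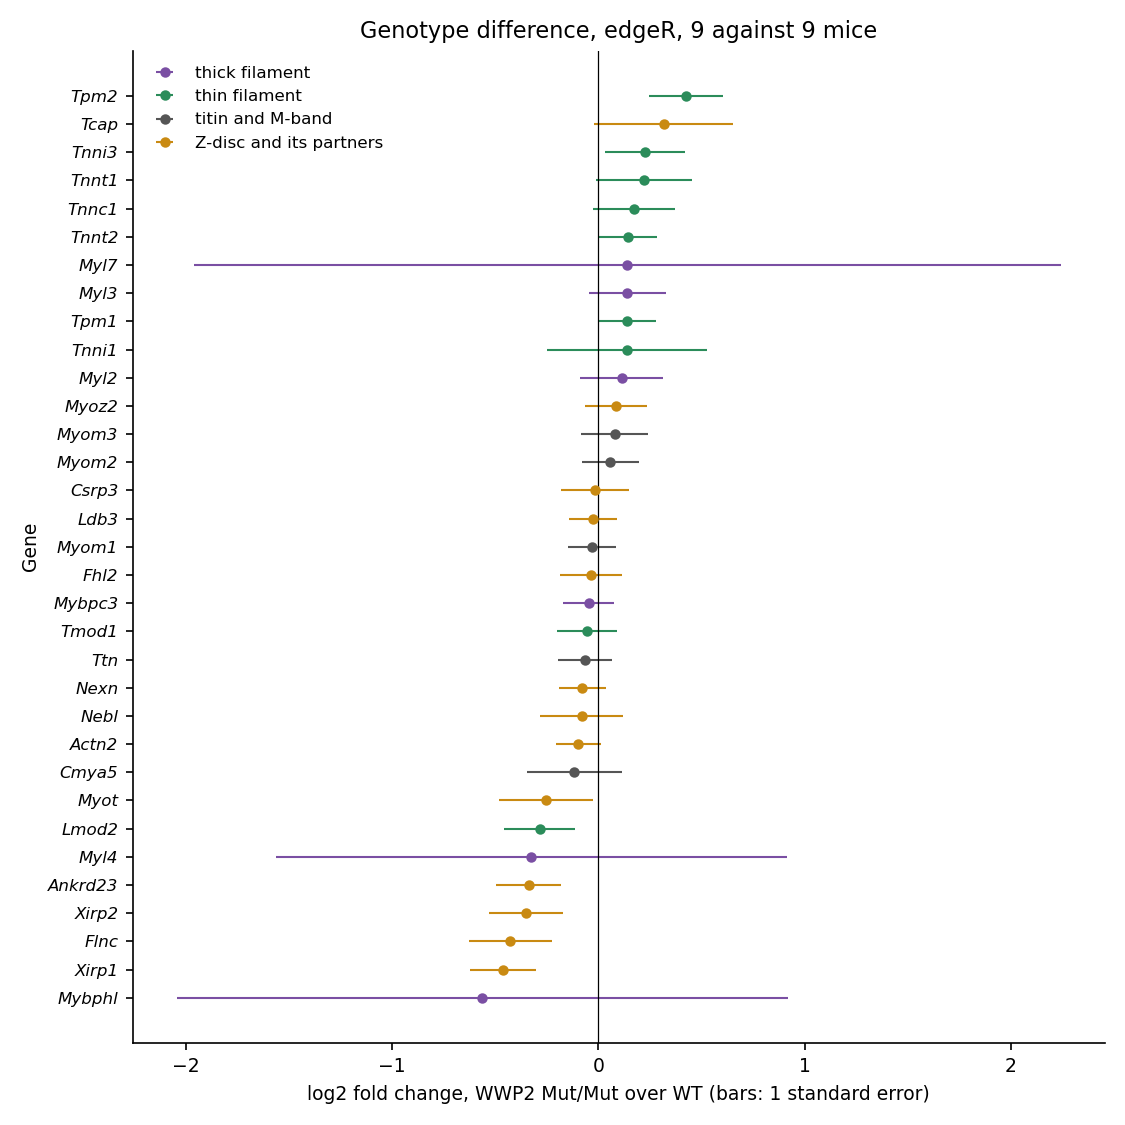
Log2 fold change of WWP2 Mut/Mut over WT for each of the 33 genes, with 1 standard error, from edgeR's fit to 9 against 9 mice, coloured by the place of the protein in the sarcomere. The genes of smallest unadjusted p are Xirp1 at -0.46 and Tpm2 at 0.42, neither past the adjusted threshold, and the widest bars belong to Myl7, Myl4 and Mybphl.

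Xirp1, which encodes an actin-binding Xin-repeat protein of the intercalated disc (chr9:120013755-120023598 of GRCm38, minus strand), had the smallest p of the 33. Its level was 20.4 to 63.1 TPM in WT (median 33.3) and 14.3 to 31.6 TPM in WWP2 Mut/Mut (median 18.8). In 5 WT mice Xirp1 was above every mutant mouse, and in 5 mutant mice it was below every WT mouse, with the other 8 mice overlapping. The log2 fold change was -0.46 (SE 0.161, unadjusted p = 0.0100, adjusted p = 0.973, edgeR), and the mean was lower in the mutant in 4 of 4 lanes, at 22.6 against 22.1 TPM in lane 1 and 53.3 against 22 TPM in lane 3, WT first. Its relative Xirp2 was at 28.96 to 65.4 TPM in WT (median 37.1) and 23.2 to 67.3 TPM in the mutant (median 28.5). Xirp2 was below every WT mouse in 6 mutant mice, yet the highest of all 18 values was mutant mouse 62-1. Its log2 fold change was -0.35 (SE 0.178, unadjusted p = 0.0637), and the mutant mean was lower in 2 of 4 lanes and higher in the other 2.

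Flnc, for filamin C, which links actin at the Z-disc and the membrane, was at 16 to 60.9 TPM in WT (median 31.9) and 13.4 to 49.7 TPM in WWP2 Mut/Mut (median 22.5). Its log2 fold change was -0.43 (SE 0.203, unadjusted p = 0.0499, adjusted p = 1.0, edgeR), with a lower mutant mean in 3 of 4 lanes. Ankrd23, for a muscle ankyrin repeat protein that binds titin, was at 165.8 to 680.3 TPM in WT (median 371.1) and 160.9 to 375.4 TPM in the mutant (median 240.6). In 4 WT mice Ankrd23 exceeded every mutant mouse. Its log2 fold change was -0.34 (SE 0.157, unadjusted p = 0.0457, adjusted p = 1.0, edgeR), lower in 4 of 4 lanes. WT mouse 43-3, the library with the lowest RNA concentration and 156.5 TPM of Myl7, had the highest Xirp1, Flnc and Ankrd23 of all 18 mice. An exon of Ankrd23 overlaps the predicted gene Gm42417 on the same strand.

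Tpm2, for β-tropomyosin, which is more abundant in slow skeletal and embryonic muscle, differed in the other direction. Its level was 23.9 to 36.3 TPM in WT (median 31.5) and 23.3 to 64.6 TPM in WWP2 Mut/Mut (median 32.2). The medians were close, and mutant mice 52-1 (64.6 TPM) and 24-3 (44.4 TPM) alone lay above every WT mouse. The log2 fold change was 0.42 (SE 0.180, unadjusted p = 0.0300, adjusted p = 1.0, edgeR), with a higher mutant mean in 3 of 4 lanes. It was 0.25 (SE 0.176, unadjusted p = 0.179) without mouse 52-1, and 0.26 (SE 0.111, unadjusted p = 0.0316) with the gene body coverage fraction described below added to the fit. That fraction was 0.0526 in mouse 52-1 and 0.0479 in mouse 24-3, against a mean of 0.0387 in WT and 0.0401 in WWP2 Mut/Mut. It was 0.054 in WT mouse 16-1, the highest of all, with Tpm2 at 27.3 TPM. In WT mouse 94-2 it was 0.0479, with Tpm2 at 36.3 TPM. Why Tpm2 was high in mice 52-1 and 24-3 was not tested.

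These values rest on the fit with RNA concentration and lane as covariates, and RNA concentration itself differed between genotypes. With lane alone, the log2 fold changes were -0.40 for Xirp1, -0.40 for Ankrd23, -0.25 for Flnc, -0.18 for Xirp2 and 0.32 for Tpm2, and the count at an unadjusted p below 0.05 was 2. Without the 5 libraries above 20 Myl7 TPM they were -0.40, -0.28, -0.41, -0.33 and 0.62, and the count was 3. Over all genes the counts were 682 of 24804 with lane alone and 510 of 24087 without the 5 libraries.

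By place in the sarcomere, 11 of the 13 Z-disc genes had a log2 fold change below 0 (median -0.08) and 7 of the 9 thin filament genes one above 0 (median 0.15). The 6 thick filament genes were split 3 and 3 (median 0.03), and of the 5 titin and M-band genes 2 were above 0 and 3 below (median -0.03). Of the 33 genes 57.6% were below 0, against 51.9% of all genes tested. These splits depended on the fit and the scale. The Z-disc genes below 0 numbered 8 of 13 with the gene body coverage fraction added, 9 of 13 with lane alone or without covariates (median -0.02 without them) and 10 of 13 with Alb added (median -0.18). They numbered 11 of 13 with limma on log2(TPM + 1) (median -0.26) and 12 of 13 without the 5 libraries above 20 Myl7 TPM (median -0.18). The thin filament genes above 0 were 8 of 9 with the coverage fraction added. Of the 6 thick filament genes 3 are Myl7, Myl4 and Mybphl, whose signs were not stable, and the number above 0 ran from 1 with the coverage fraction added to 5 with the non-member atrial markers or Alb added. Of the titin and M-band genes, 4 of 5 were above 0 without covariates and 0 of 5 with limma. With limma on log2(TPM + 1), which moved the median of all genes to -0.13 and that of the 33 genes to -0.15, 5 of the 9 thin filament genes and 1 of the 6 thick filament genes were above 0, and 14 higher and 19 lower among the 33 became 8 and 25 (75.8% below 0, against 86.5% of all genes). On that scale the genes at an unadjusted p below 0.05 were 0 higher (against 0.193% of all genes) and 4 lower (12.1%, against 3.54%), in place of 1 and 3. The genes outside the 4 with an unadjusted p below 0.05 numbered 29, among them Lmod2 (log2 fold change -0.28, SE 0.173), Myot (-0.26, SE 0.229), Tcap (0.32, SE 0.338), Tnni3 (0.22, SE 0.195) and Mybpc3 (-0.05, SE 0.124), for cardiac myosin-binding protein C.

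For genes that encode the atrial or ventricular, and the slow or cardiac, forms of a protein, the share taken by the minor form was computed within each library. Myl7 took 0.341% ± 0.648 of Myl7 and Myl2 in WT and 0.157% ± 0.346 in WWP2 Mut/Mut. Myl4 took 0.696% ± 1.28 of Myl4 and Myl3 in WT and 0.318% ± 0.627 in the mutant. Tnni1 took 0.0102% ± 0.0111 of Tnni1 and Tnni3 in WT and 0.00717% ± 0.00581 in the mutant. Tnnt1, for slow skeletal troponin T, took 0.213% ± 0.0452 of Tnnt1 and Tnnt2 in WT and 0.217% ± 0.0282 in the mutant. Tpm2 took 0.391% ± 0.0550 of Tpm2 and Tpm1 in WT and 0.475% ± 0.165 in the mutant (SD, n = 9 each). None of the 5 shares differed detectably in mean between genotypes (two-sided exact permutation tests, p = 0.179 to 0.802, and 0.647 to 0.802 after Benjamini-Hochberg adjustment over the 5). The fetal and slow forms were thus a small fraction of each pair in both genotypes. Tnnt1 itself ranged from 8.2 to 18.6 TPM in WT (median 12.5) and from 9.47 to 14.9 TPM in the mutant (median 12.3), and Tnni1, on 3 to 71 counts, from 0.1 to 1.87 TPM (median 0.26) and from 0.16 to 1.26 TPM (median 0.32). Tnnt1 lies 1.92 kb from Tnni3 on chromosome 7, and Tnni1 lies 25.4 kb from Tnnt2 on chromosome 1, yet their levels differ by orders of magnitude within each pair.

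A second list of 54 genes of the sarcomere, its chaperones and its Z-disc partners was read in the same fit, and 52 were tested. None was called at the adjusted threshold. At an unadjusted p below 0.05 there was 1 (1.92%, against 3.66% of all genes tested), Synpo2l, for an actin-binding protein of the Z-disc, with 50.3 ± 15.8 TPM in WT and 31.9 ± 7.04 TPM in WWP2 Mut/Mut (log2 fold change -0.50, unadjusted p = 0.00435, adjusted p = 0.927, edgeR). By sign, 35 of the 52 were below 0 (67.3%, against 51.9% of all genes) and 17 above, with a median of -0.07. With limma on log2(TPM + 1), 44 of the 45 that passed its filter were below 0 (97.8%, against 86.5% of all genes).

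The table of samples gives each library a gene body coverage fraction, 0.0288 to 0.0540, whose exact definition is not stated. It did not differ detectably between genotypes (0.0387 ± 0.00861 in WT and 0.0401 ± 0.00825 in WWP2 Mut/Mut; two-sided exact permutation test, p = 0.720). Many of the sarcomere genes moved with it. Per SD of this fraction (0.00821), 20 of the 33 genes (60.6%) were called at an adjusted p below 0.05, against 30.9% of all genes tested. The share over all genes includes many with few counts. Among genes with a mean count of 50 or more per library it was 52.5%, beside 20 of 32 (62.5%) of the sarcomere genes. Set against these genes, the share of the sarcomere genes is near the background. The called genes divided evenly, with 10 higher where the fraction was higher (30.3%, against 14.8% of all genes and 22.8% of those with a mean count of 50 or more) and 10 lower (30.3%, against 16.1% and 29.7%).

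In the counts, the genes that rose with the fraction were those of the light chains Myl2 and Myl3, of the troponins Tnni3, Tnnc1, Tnnt1 and Tnnt2, of the tropomyosins Tpm1 and Tpm2, and Tcap and Csrp3. Tcap rose by 0.54 per SD (SE 0.107, adjusted p = 0.000626) and Tnni3 by 0.35 (SE 0.0555, adjusted p = 7.19e-05). The genes that fell with it were Nebl, Cmya5, Myot, Flnc, Lmod2, Tmod1, Xirp1, Fhl2, Nexn and Ldb3. Cmya5, for the large protein myospryn, had a slope of -0.41 (SE 0.0544, adjusted p = 1.3e-05) and Nebl one of -0.38 (SE 0.0434, adjusted p = 2.54e-06), all from edgeR's quasi-likelihood test. In WT mouse 43-3, with the lowest fraction, Nebl was at 44.7 TPM and Tcap at 883.9 TPM, and in WT mouse 16-1, with the highest, Nebl was at 13.6 TPM and Tcap at 2477 TPM. Of the 4 places in the sarcomere, the thin filament had 6 of 9 genes higher and 2 lower, and the Z-disc 2 of 13 higher and 7 lower. The thick filament had 2 of 6 higher and none lower, and the titin and M-band group none of 5 higher and 1 lower. Among all genes with a mean count of 50 or more, 22.8% were higher and 29.7% lower. The places were not compared with each other by a test, and transcript length was not taken into account in these counts.

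The direction followed transcript length in part. Of the 10 genes whose longest annotated transcript is under 2 kb, 6 were higher and 2 lower, of the 13 at 2 to 5 kb 4 were higher and 3 lower, and of the 10 over 5 kb none was higher and 5 were lower. Over all genes tested the corresponding shares were 19.3% higher and 3.53% lower under 2 kb, 13.7% and 18.9% at 2 to 5 kb, and 6.68% and 39.8% over 5 kb. Among genes with a mean count of 50 or more they were 51.9% and 6.65% under 2 kb, 18.3% and 30.2% at 2 to 5 kb, and 6.8% and 49.5% over 5 kb, near the 6 of 10 sarcomere genes under 2 kb that were higher and the 5 of 10 over 5 kb that were lower. Ttn, with the longest transcript of the 33, had a slope of 0.02 (SE 0.0600, adjusted p = 0.878), and Lmod2 and Fhl2 fell although their transcripts are short, at 1976 and 1563 bases. The split of calls depended on the scale. With limma on log2(TPM + 1) it was 6 higher (18.2%, against 10.4% of all genes) and 14 lower (42.4%, against 49.9%). After rescaling each library to 1000000 TPM, an alternative added after the data were seen, it was 3 higher (9.09%, against 5.66%) and 18 lower (54.5%, against 58.7%), with the median of all genes at -0.18. All genes thus shifted to lower calls on these scales too. The 10 genes that fell in the counts, among them Nebl, Cmya5 and Flnc, were called lower on both TPM scales. Of the 10 that rose, only 5 were called higher with limma on log2(TPM + 1) (Tcap, Tnni3, Myl2, Tnnc1 and Tnnt1) and only Tcap and Tnni3 on the rescaled TPM. On the rescaled TPM 7 of the 10 were not called, and Tpm1 was called in the other direction (0.17 in the counts, -0.09 on the rescaled TPM, adjusted p = 0.0392, limma). Without the 5 libraries above 20 Myl7 TPM, 15 genes were called (45.5%, against 21.8% of all genes), 9 higher (27.3%, against 9.71%) and 6 lower (18.2%, against 12.1%). Myl4 was then among the higher genes, and Tnnt2, Tpm1, Fhl2, Ldb3, Nexn and Xirp1 were no longer called. With and without the 5 libraries, the slopes of the genes that lost their call were 0.18 and 0.16 for Tnnt2 and 0.17 and 0.16 for Tpm1. They were -0.17 and -0.17 for Fhl2, -0.13 and -0.15 for Ldb3, -0.14 and -0.13 for Nexn and -0.19 and -0.10 for Xirp1.

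**Figure D4:**
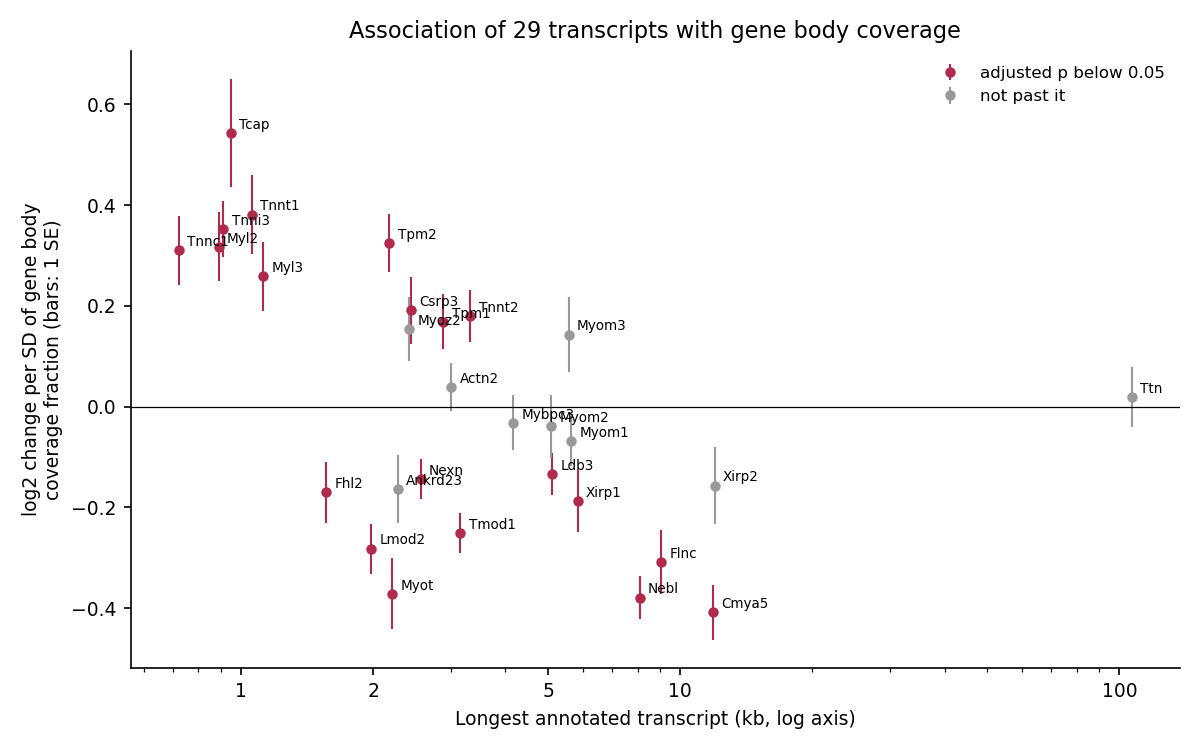
Log2 change per SD of the gene body coverage fraction, with 1 standard error, against the longest annotated transcript in kb on a log axis, for 29 of the 33 genes (Myl7, Myl4, Mybphl and Tnni1, with wide errors and not called, are left out). Red marks an adjusted p below 0.05: the called genes under 2 kb lie mostly above 0 and all called genes over 5 kb lie below 0, with Ttn at 0.02.

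Actn2, for the α-actinin of the cardiac Z-disc (chr13:12269426-12340760 of GRCm38, minus strand), gave different pictures in the 2 deposited units. Its TPM ranged from 529.3 to 1303, a 2.46-fold span, and its CPM (counts scaled to the library's total count) from 1574 to 2365, a 1.5-fold span. The counts per TPM follow the transcript length that the quantification assigned to the gene. They were scaled in each library by a factor taken from abundant genes, and are given relative to the gene's own median over the 18 libraries. For Actn2 this ratio ranged from 0.494 to 1.38. For 30 of the 33 genes this ratio stayed within 1.5-fold across libraries, and the others were Actn2 (2.79-fold), Tnni1 (1.55-fold, on few counts) and Myom2 (1.5-fold). Actn2 was singled out after its values were seen. Its 5 annotated transcripts have 3013, 2920, 1361, 576 and 501 bases.

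The ratio fell as the gene body coverage fraction rose (Pearson's r = -0.948 and Spearman's rho = -0.955 over 18 libraries, permutation p = 1e-05 each, the smallest that 100000 resamples can give). Without the 2 libraries farthest from the median fraction r was -0.943, and it was -0.934 within WT, -0.966 within WWP2 Mut/Mut and -0.957 over the 13 libraries with low Myl7. This was the only relation of this kind computed, and it was chosen after the values were seen. The fit to counts gave Actn2 a slope of 0.04 per SD of the fraction (SE 0.0471, adjusted p = 0.593, edgeR), whereas limma on log2(TPM + 1) gave 0.43 (SE 0.0493, adjusted p = 3.0e-06). Between genotypes Actn2 was called in neither unit, at a log2 fold change of -0.10 (SE 0.110, adjusted p = 1.0) in the counts and 0.04 (SE 0.228, adjusted p = 0.926) in the TPM.

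**Figure D5:**
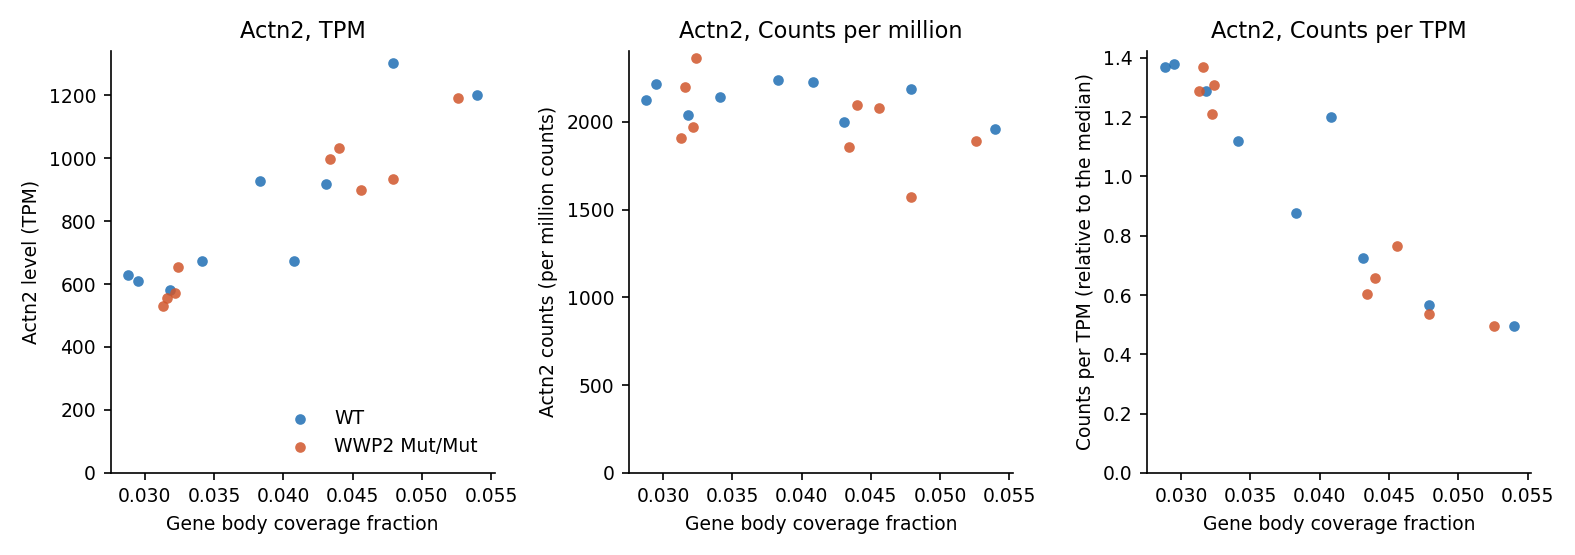
Actn2 in each library as TPM, as CPM and as scaled counts per TPM relative to the median of Actn2 over the libraries, against the gene body coverage fraction, with WT in blue and WWP2 Mut/Mut in orange and every vertical axis starting at 0. TPM spans 529.3 to 1303, CPM 1574 to 2365, and counts per TPM falls from 1.38 to 0.494 as the fraction rises, in both genotypes.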

How the data were processed

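Poly(A) RNA of the left ventricle was sequenced from 18 separate mice (9 WT, 9 WWP2 Mut/Mut), which were grouped by the genotype in their labels. The authors aligned reads to m38 with STAR 2.5.2b, quantified Ensembl 89 genes with RSEM 1.2.31, removed mitochondrial and rRNA genes, and deposited expected counts (5.11% of the values not whole) and TPM, with a table of lane, RNA concentration and gene body coverage as a fraction. The TPM summed to 671770 to 826381 per library, below the nominal 1000000, and were used as deposited. The library kit keeps strand, but the strand setting of the quantification is not given in the sources used here. Replicates differed by more than sampling noise in every one of 72 pairs of the same genotype (chi-square per gene 10.8 to 189).

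Counts were rounded and tested with edgeR 4.0.16 (R 4.3.3; TMM, quasi-likelihood F test) on the 24804 genes whose counts summed to more than 1, in a model that also held lane and centred RNA concentration. Benjamini-Hochberg adjustment ran over all genes tested, and an adjusted p below 0.05 was a call. Shares called were also read among the 12235 genes with a mean count of 50 or more, after the data were seen. log2(Myl7 TPM + 1) and the coverage fraction were added as further terms in separate fits. DESeq2 1.42.0, limma 3.58.1 on log2(TPM + 1), other filters, size factors and covariates, and leaving out each mouse were the alternatives. Single values were compared by two-sided exact permutation tests over 48620 divisions of the mice. Counts per TPM were divided in each library by a median over 1759 genes above 20 TPM in every library, each taken relative to its own mean. They were then divided by the gene's own median over the 18 libraries. Positions and lengths are from GENCODE M21 on GRCm38, and promoters from RefSeq. The genes and lists were chosen with earlier results of these data known. Single genes were named by role, by smallest genotype p and by level, under the rule that gives full values for the 5 smallest p, the 5 highest means, the atrial and the slow or embryonic forms. Of the 54 other sarcomere genes, Murc was not matched, being an older name of Cavin4, which is in the list, and Myoz3 had 0 counts in every library. The fits were tested on simulated counts. Exons of Nexn overlap another annotated gene on the same strand and those of Ttn, Myl2, Myl3, Myl4, Mybphl, Myom1, Xirp2, Tmod1 and Cmya5 on the opposite strand, so their counts may include reads of that gene. Reads were not analysed, and intervals of counting error are not given, since replicate spread was larger.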

Additional observations from a re-analysis of the deposited data

Results flagged for a closer look

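Values of each gene and share were examined within a genotype, and an extreme mouse was marked where the distance to its nearest neighbour took up more of the range of the 9 mice than Dixon's test allows. Of 78 groups of values, 14 were marked, and chance marks about 1 in 20. Most belong to 2 libraries with abundant atrial transcripts. WT mouse 45-1 stood apart for Myl7 (338.0 TPM, others up to 156.5), Myl4 (254.8 TPM, others up to 128.6), Mybphl (20.68 TPM, others up to 6.1), the share of Myl7 in Myl7 and Myl2 (1.928%) and the share of Myl4 in Myl4 and Myl3 (3.844%). WWP2 Mut/Mut mouse 8-2 stood apart for Myl7 (213.8 TPM, others up to 48.67), Myl4 (173.0 TPM, others up to 40.21), Mybphl (11.39 TPM, others up to 2.26), Tnni1 (1.26 TPM, others up to 0.49), the share of Myl7 in Myl7 and Myl2 (1.04%), the share of Myl4 in Myl4 and Myl3 (1.924%) and the share of Tnni1 in Tnni1 and Tnni3 (0.02204%).

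WT mouse 45-1 was also the highest WT mouse for Myom3, at 1.41 TPM, with the other 8 between 0.6 and 0.95 TPM. WWP2 Mut/Mut mouse 62-1 was marked for Xirp2, at 67.26 TPM, with the other 8 between 23.17 and 40.37 TPM.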

How the results depend on the processing

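No paired analysis was possible because the mouse numbers in the labels are not shared between genotypes. None of the 33 genes was called between genotypes under any of the 15 other settings or without any 1 mouse. Their count at an unadjusted p below 0.05, 4 in the report, was 2 without covariates, 2 with lane alone, 2 with Myl7 added (Myl7 itself left out), 2 with limma without a TPM filter, 1 with limma on TPM rescaled to 1000000, 5 with DESeq2 and 6 with Alb added, and 1 to 8 with 1 mouse left out. It was 1 without WT 25-3, Mut 24-3 or Mut 52-1, 2 without WT 45-3, WT 67-1, WT 84-2, Mut 22-3, Mut 54-1 or Mut 62-1, 7 without Mut 33-1 and 8 without WT 45-1. Over all genes, the 1 called was lost (0) without the 5 libraries above 20 Myl7 TPM, and 1 to 2 were called with 1 mouse left out, 2 without WT 84-2 or Mut 1-2. All genes at an unadjusted p below 0.05 numbered 307 to 1522 across the settings, and those of the second sarcomere list 1 to 9. Of 24804 genes tested they were 908 in the report, 1141 without covariates, 682 with lane alone, 597 with DESeq2 and 1522 with Alb added. They were 942 of 24803 with Myl7 added, 1191 of 26787 with limma without a TPM filter and 307 of 13084 with limma on rescaled TPM. Xirp1, Xirp2, Flnc, Ankrd23 and Tpm2 kept their direction under every setting and without any 1 mouse, with log2 fold changes of -0.72 to -0.39 for Xirp1 and 0.25 to 0.62 for Tpm2. Those of Flnc ran from -0.72 to -0.25, of Xirp2 from -0.62 to -0.16 and of Ankrd23 from -0.52 to -0.27.

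The genotype differences of the atrial genes had no stable sign. Myl4 was at -0.33 in the report, 0.051 with Myl7 added, 0.70 with the non-member atrial markers added, 0.70 with Alb added, 0.49 without the 5 libraries, and -1.04 to 1.67 with 1 mouse left out. Mybphl was at -0.56, 0.073, 0.83, 0.70, 0.65 and -1.62 to 2.01 in the same order. Myl7 was at 0.14, -0.84 without covariates, -0.023 with gene body coverage added, and -1.61 to 3.46 with 1 mouse left out. The differences in share changed sign with 1 mouse left out for Myl7 of Myl7 and Myl2 (-0.294 to 0.0144 percentage points), Myl4 of Myl4 and Myl3 (-0.579 to 0.0157) and Tnnt1 of Tnnt1 and Tnnt2 (-0.00643 to 0.0121). The cause was not tested.

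With the stricter count filter, 1 gene in place of 2 was called with Myl7, since that filter removes Mybphl, and with genotype as the only other term Tnni1 was called too (slope 0.30, adjusted p = 0.0134). The count called with gene body coverage stayed between 15 and 23. Of the 10 genes higher with it, Tpm2 (adjusted p = 0.0927 and 0.381), Tnnt2 (0.692 and 0.300), Csrp3 (0.828 and 0.190) and Myl3 (0.0989 and 0.794) lost their call with limma on either TPM scale. Tnnt1 (0.247), Tnnc1 (0.312) and Myl2 (0.10) lost it on the rescaled TPM alone, and Tpm1 was not called on log2(TPM + 1) (0.879) and was called lower on the rescaled TPM (-0.086, 0.0392). Depth limits Myl7, Mybphl and Tnni1, at 2 to 155, 2 to 26 and 3 to 24 counts in the 13 libraries with low Myl7. As a percentage of the library, the members differed between genotypes by -0.314 in TPM and -0.0837 in expected counts. The settings that omit the 5 libraries and the fit of coverage to rescaled TPM were chosen after seeing the data.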

Other observations

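The second list of sarcomere genes was also read against the library measures. Of its 52 genes tested, 22 (42.3%) were called with the gene body coverage fraction, 9 higher and 13 lower, against 30.9% of all genes tested. Among genes with a mean count of 50 or more the shares were 21 of 44 (47.7%) and 52.5%. With Myl7, 0 of the 52 were called by edgeR, and 7 (13.5%) had an unadjusted p below 0.05, all of them lower where Myl7 was higher, against 8.77% of all genes. Among genes with a mean count of 50 or more these shares were 5 of 44 (11.4%) and 11.6%.

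Acta1, Ankrd1 and Myh7 of that list are named here after their values were seen, and none was called between genotypes. Acta1, for skeletal α-actin, which the overloaded ventricle expresses, was at 901.9 ± 375.6 TPM in WT and 716.1 ± 437.4 TPM in WWP2 Mut/Mut (log2 fold change -0.51, SE 0.276, adjusted p = 1.0, edgeR). Ankrd1, for a titin-binding ankyrin repeat protein related to Ankrd23, was at 770.3 ± 222.4 TPM in WT and 630.0 ± 254.8 TPM in WWP2 Mut/Mut (log2 fold change -0.31, SE 0.160, adjusted p = 1.0, edgeR). Myh7, for the β-myosin heavy chain, was at 60.5 ± 20.6 TPM in WT and 39.5 ± 18.9 TPM in WWP2 Mut/Mut (log2 fold change -0.37, SE 0.240, adjusted p = 1.0, edgeR).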
